A study of Mus musculus with 5 samples.

Results

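The genes described here are 9 homeodomain transcription factors that pattern the embryonic forebrain, namely Emx1, Emx2, Lhx2, Pax6, Dlx1, Dlx2, Dlx5, Dlx6 and Six3. They were taken as the rows of the deposited tables whose RefSeq transcript maps to these symbols, which gave 9 of the 20178 transcripts, each found in all 5 tables. The tables hold RNA-seq of cultured ICR mouse cells, with 1 library per condition and no replicate, so no test between conditions was possible. FPKM, in which a count is scaled by the length of its transcript and the size of its library, is the only scale on which different genes are compared. CPM is the count scaled to library size alone, without length, and folds between libraries are ratios of CPM. The 95% intervals beside them are exact (Clopper-Pearson) and cover counting error only, neither the spread between cultures nor reads copied by PCR. A gene was called higher or lower when it differed 2-fold and either library compared had an FPKM above 1.

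All 5 libraries came from cells at passage 2. Cortical neural progenitor cells (Ctx NPC) were taken from the cortex at embryonic day 12. Cortical astrocytes (Ctx astrocyte) and ventral midbrain astrocytes (VM astrocyte) were taken at postnatal day 5, and are entered in the labels as astrocyte progenitor cells. The remaining libraries are VM astrocytes transduced with lentivirus, titled C and NF. According to the methods of the study, the vectors expressed Nurr1 (Nr4a2) and Foxa2 from the CMV promoter and the control virus carried the empty backbone. For these 2 libraries the labels contradict themselves, since the one titled C is entered as treated with Nurr1 and Foxa2 viruses and the one titled NF as treated with mock virus. They are named by their titles below, and if the treatment entries hold, their roles are exchanged. Foxa2 had 68 reads in untransduced VM astrocytes, 15 in the library titled C and 216 in that titled NF, and Nr4a2 had 81, 53 and 183. Both genes were thus highest in the library titled NF, which is the direction of the titles and not of the treatment entries. The cDNA of Foxa2 was from rat, and reads of the transgene were not counted apart from those of the gene.

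Forebrain identity is laid down by sets of transcription factors in adjoining domains. Emx1, Emx2, Lhx2 and Pax6 act in the dorsal telencephalon, which forms the cortex. Lhx2 and the Emx genes are needed for cortical identity and growth, and Pax6 is found in the radial glia of the cortex and also in parts of the hindbrain and spinal cord. The Dlx genes act in the ventral telencephalon, where Dlx1 and Dlx2 come on early in progenitors and Dlx5 and Dlx6 later, as cells turn into GABA neurons. Six3 marks the most anterior neural plate and is required for the forebrain and the eye.

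Library totals lay between 20010818 and 22554835 reads, and 3 reads, the smallest count taken as measurable, equal a CPM of 0.133 to 0.150. Astrocyte markers were present throughout, and all 11 had FPKM above 1 in every library. Their summed FPKM was 3732 in Ctx NPC, 1306 in Ctx astrocytes and 545 to 650 in the 3 VM libraries. The library labelled Ctx NPC held neural precursor genes, such as Sox2 (201 FPKM) and Hes5 (41.1). The sum over the 10 genes of that list did not set it apart, at 4260 FPKM against 4893 in Ctx astrocytes. Of the 10, 3 were called higher in Ctx NPC than in Ctx astrocytes and 1 (Vim) was called lower. Glial genes were high in Ctx NPC as well. It had the highest Gfap of the 5 libraries (2246 FPKM). Its summed FPKM over 8 oligodendrocyte markers was 3018, against 90.8 to 168 elsewhere. Microglia markers summed to 0.778 FPKM in Ctx NPC, with Trem2 at 0 reads, to 26.6 in Ctx astrocytes, 84.4 in VM astrocytes, 322 in the library titled C and 53.1 in that titled NF. Fewer cells of a type and less RNA per cell cannot be told apart in these bulk libraries, and the part of cell make-up in the values below was not tested.

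The loci were placed with RefSeq on GRCm38.p6. The study's methods name GRCm38/mm10 for mapping and the submitters' processing notes list mm9, and the tables hold no coordinates, so the positions below are those of the reference and not of the tables. Chromosome 2 holds Lhx2 (chr2:38339271-38369737, plus strand), Pax6 (chr2:105668896-105698410, plus strand) and the Dlx1 and Dlx2 pair (chr2:71528113-71533981 and chr2:71543408-71546754), which face each other on opposite strands with 9426 bases between them. Chromosome 6 holds Emx1 (chr6:85187931-85204463, plus strand) and the convergent pair Dlx6 and Dlx5 (chr6:6863334-6867970 and chr6:6877801-6882068), with 9830 bases between them. Six3 lies at chr17:85613608-85626191 and Emx2 at chr19:59458690-59465357, both on the plus strand. Antisense genes overlap Dlx1 (Dlx1as, by 3344 bases), Dlx6 (Dlx6os1, by 4637 bases, and Dlx6os2, by 1354), Six3 (Six3os1, by 4789) and Pax6 (Pax6os1, by 1435), and the protein-coding gene Elp4 runs into Pax6 from the opposite strand by 1091 bases. Whether counting used strand is not given in the sources used here, so reads from these antisense partners cannot be told apart from those of the members. Of these partners, Elp4 was counted in the tables. It had 1058 reads in Ctx NPC, 487 in Ctx astrocytes, 374 in VM astrocytes, 394 in the library titled C and 295 in that titled NF.

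To see how far reads could be shared between the Dlx and Emx relatives, the longest exact run of bases common to each of the 36 pairs of member transcripts (GENCODE vM21) was searched on the sense strand. The longest was 23 bases, in Dlx2 with Dlx6 and in Lhx2 with Dlx5, and the median was 14. The Dlx2 and Dlx6 run is shown because it is the longest between Dlx relatives, and it is a repeat of cag-like triplets rather than homeobox sequence.

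Dlx2 and Dlx6 shared run: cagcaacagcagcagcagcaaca

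On the sense strand of the transcripts searched, a read longer than these runs cannot match 2 members exactly along its whole length. Matches to the opposite strand were not searched. The transcripts searched can differ from those counted, as for Lhx2, where a run began at base 2601 and the counted length was 2300.

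RefSeq promoter windows of 300 bases, from 250 before a transcription start to 50 after it, were at hand for 7 of the 9 genes (9 windows, with 2 each for Lhx2 and Pax6). No window was at hand for Dlx5 and Dlx6. The windows were rich in CpG. Their ratio of observed to expected CpG, from 0.70 upward, lay above that of 70.8% of all 32851 windows at the upstream Pax6 start and above that of 93.9% at the downstream one, with the other 7 between, and the median of all windows was 0.38. The search was for TAAT on either strand (TAAT or ATTA in the printed strand), the short core that many homeodomain proteins recognise. It was found in 4 of the 9 windows, those of Emx2, Six3 and both Pax6 starts, and in 58.0% of all windows. The palindrome TAATTA, in which a TAAT and an ATTA overlap, was found in the Emx2 window alone, and in 5.29% of all windows. The windows shown are those of the gene with the palindrome and of the members whose levels differed most between Ctx and VM astrocytes in each direction, all on the plus strand of GRCm38.p6, with TAAT and ATTA in capitals.

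Emx2, chr19:59458440-59458739: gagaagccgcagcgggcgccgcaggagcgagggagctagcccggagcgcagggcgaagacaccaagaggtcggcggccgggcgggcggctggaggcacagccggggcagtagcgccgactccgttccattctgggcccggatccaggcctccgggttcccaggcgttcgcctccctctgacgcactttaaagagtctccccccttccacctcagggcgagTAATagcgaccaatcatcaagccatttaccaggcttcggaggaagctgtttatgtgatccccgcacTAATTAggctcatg

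Lhx2, downstream start, chr2:38351058-38351357: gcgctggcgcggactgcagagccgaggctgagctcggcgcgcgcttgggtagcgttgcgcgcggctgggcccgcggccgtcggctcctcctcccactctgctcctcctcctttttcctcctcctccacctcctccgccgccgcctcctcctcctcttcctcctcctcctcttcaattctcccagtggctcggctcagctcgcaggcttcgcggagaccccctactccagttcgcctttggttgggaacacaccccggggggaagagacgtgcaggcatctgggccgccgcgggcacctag

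Six3, chr17:85620584-85620883: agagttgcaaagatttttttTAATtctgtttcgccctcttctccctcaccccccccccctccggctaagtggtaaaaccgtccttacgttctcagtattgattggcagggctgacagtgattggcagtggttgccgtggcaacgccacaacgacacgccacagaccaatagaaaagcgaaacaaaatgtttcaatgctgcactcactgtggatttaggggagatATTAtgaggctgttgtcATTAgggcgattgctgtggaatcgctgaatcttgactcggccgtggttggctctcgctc

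The Lhx2 window has 29 CpG and no TAAT core. The Emx2 window has 26 CpG and 3 cores, of which 2 overlap in TAATTA. The Six3 window has 14 CpG and 3 separate cores. Its start site, at chr17:85620834, lies inside the Six3 locus given above, downstream of the locus start at chr17:85613608. The median over all windows is 7 CpG. A match is a run of letters and was not tested as a binding site.

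All 9 genes were counted above 3 reads in at least 1 library, and 3 of them (Emx2, Dlx2 and Pax6) had FPKM above 1 in all 5. The summed FPKM of the 9 was 96.7 in Ctx NPC and 74.1 in Ctx astrocytes. It was 16.7 in untransduced VM astrocytes, 6.48 in the library titled C and 16.8 in that titled NF. The ventral Dlx genes supplied 55.3% of the sum in Ctx NPC and 8.37% in Ctx astrocytes, and the 4 cortical genes 38.2% and 90.8%. Lhx2 alone gave 68.3% of the sum in Ctx astrocytes. In VM astrocytes the leading gene was Pax6 with 34.6%, followed by Dlx2 (21.8%) and Six3 (17.9%).

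**Figure D1:**
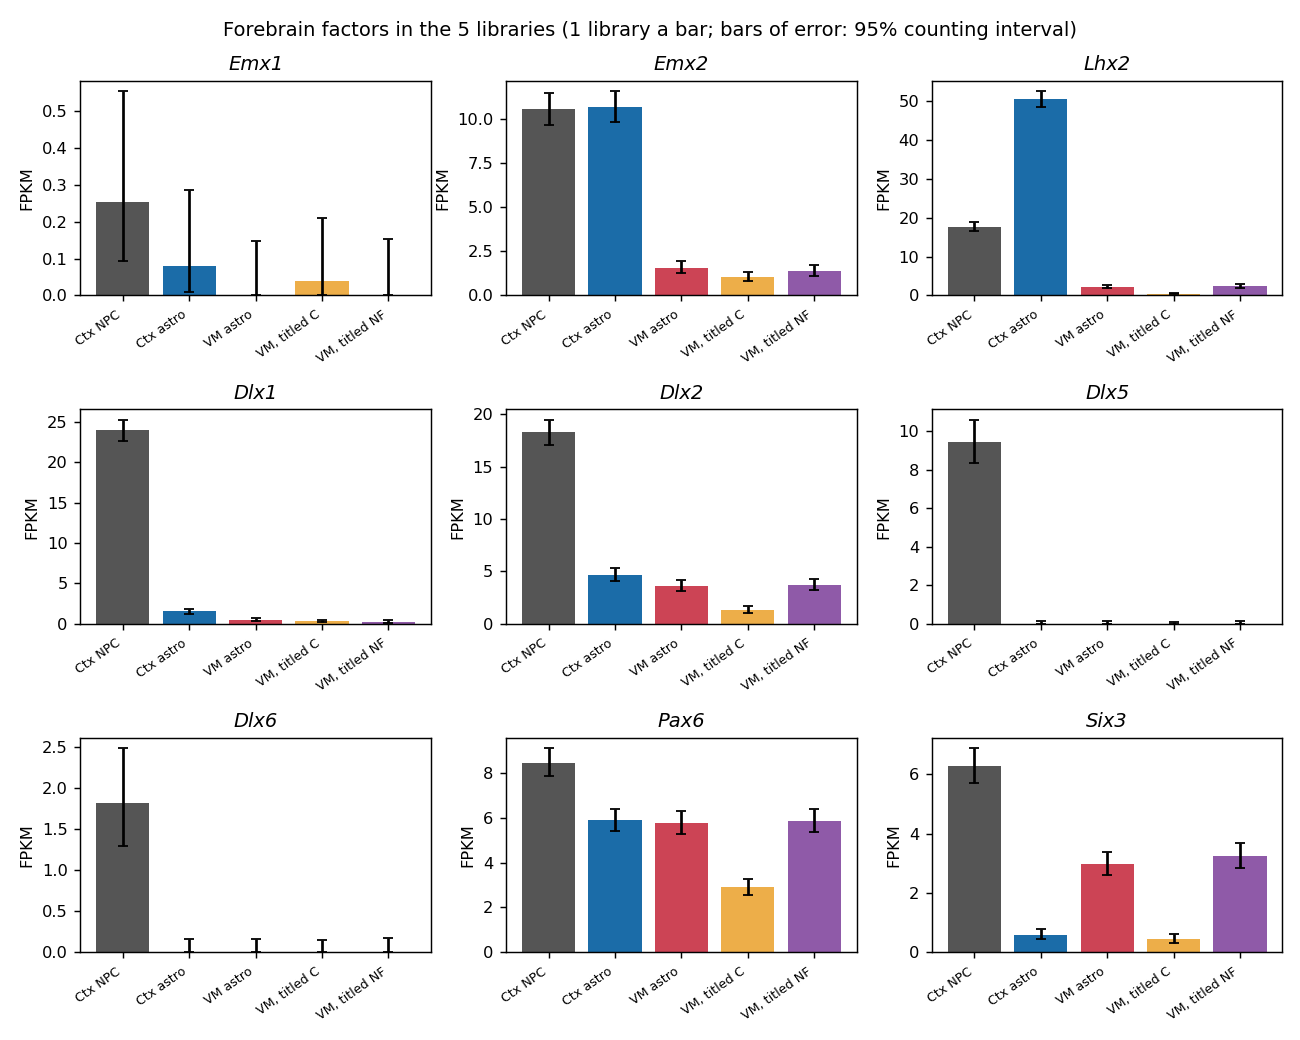
FPKM of each factor (y axis, linear from 0, one panel per gene with its own scale) in the 5 libraries (x axis). Each bar is 1 library and its error bar is the exact 95% Poisson counting interval. Lhx2 reaches 50.6 in Ctx astrocytes, Dlx5 and Dlx6 are read in Ctx NPC alone, and Six3 is higher in VM astrocytes (2.98) than in Ctx astrocytes (0.596).

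**Figure D2:**
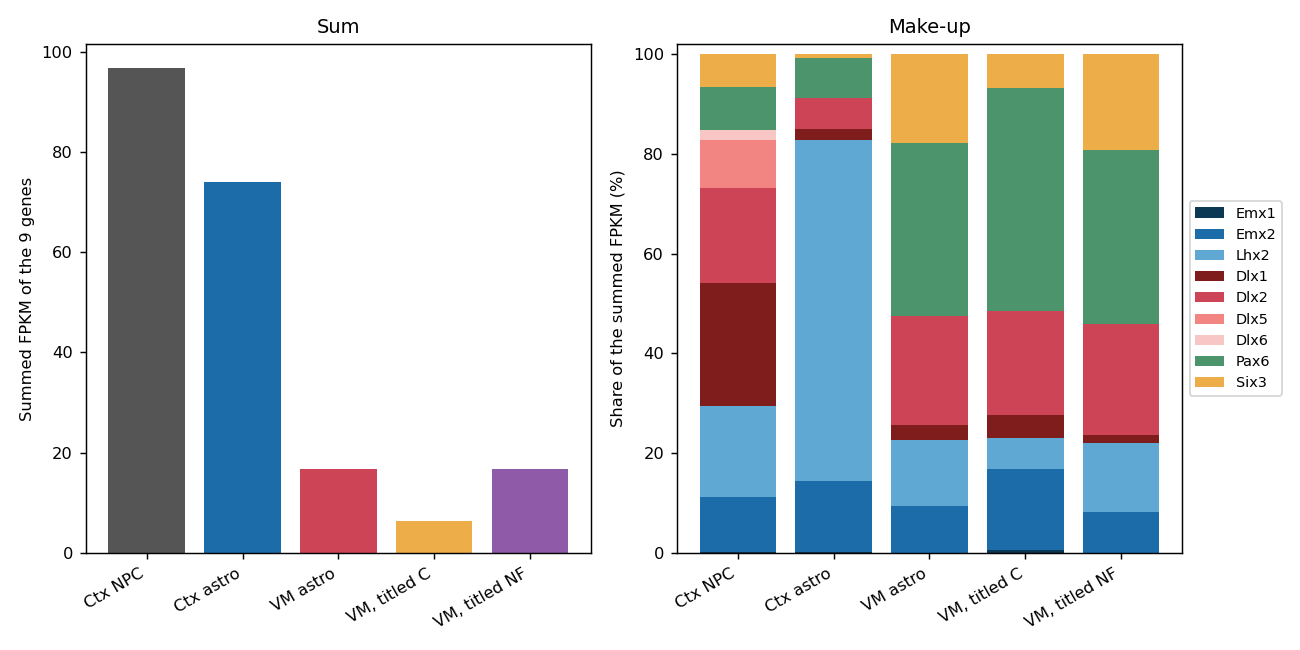
Left, summed FPKM of the 9 factors in each library (bars from 0). Right, the share of each factor in that sum (stacked, %). Dlx genes (reds) fill most of the Ctx NPC bar, and Lhx2 fills 68.3% of the Ctx astrocyte bar.

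Whether cultured astrocytes kept a regional code was asked by setting Ctx astrocytes against VM astrocytes, which share age, strain, passage and label and differ in the region they came from. Emx2, Lhx2 and Dlx1 were called higher in Ctx astrocytes and Six3 was called higher in VM astrocytes. Pax6 and Dlx2 lay within 2-fold. So 3 of the 6 members with FPKM above 1 were higher in Ctx astrocytes, where 4.49% of the 12553 genes passing the same filter were, and 1 of 6 was lower, where 9.89% of genes were. The other 3 members (Emx1, Dlx5 and Dlx6) had at most 2 reads in either library. The median log2 ratio of the 6 was 0.94, and that of all genes passing the filter was -0.05. Dlx1 passed the filter only through Ctx astrocytes and Six3 only through VM astrocytes, in each case the library where the gene was higher. With FPKM above 1 required in both libraries, 2 members were higher in Ctx astrocytes and 0 lower.

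Of the cortical genes, Lhx2, a LIM-homeodomain factor, had 2495 reads in Ctx astrocytes (50.6 FPKM) and 108 in VM astrocytes (2.20 FPKM). This 23.0-fold difference (95% counting interval 18.9 to 28.1) was the largest of the members. Emx2 had 596 reads (10.7 FPKM) and 87 reads (1.57 FPKM), a 6.81-fold difference (5.43 to 8.63). Its relative Emx1, which in the embryo is restricted to the dorsal telencephalon, had 2 reads in Ctx astrocytes and 0 in VM astrocytes, both under the measurable floor, so Emx2 carried the Emx signal in these cultures. Pax6 had 533 reads in Ctx astrocytes (5.89 FPKM) and 519 in VM astrocytes (5.77 FPKM), a ratio of 1.02 (0.903 to 1.15). Within the cortical set, then, the separation by region ran from 23.0-fold for Lhx2 to 1.02 for Pax6, whose counting interval spans 1.

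Of the ventral genes, Dlx1, Dlx5 and Dlx6 were low in both. Dlx2 ranked 4 among the members by FPKM in Ctx astrocytes and 2 in VM astrocytes. Dlx1 had 91 reads in Ctx astrocytes (1.53 FPKM) and 31 in VM astrocytes (0.523 FPKM), 2.92-fold higher in Ctx astrocytes (1.92 to 4.54). Dlx2 had 248 reads (4.67 FPKM) and 192 reads (3.64 FPKM), a ratio of 1.28 (1.06 to 1.56). Dlx5 and Dlx6 had 0 reads in both. Dlx2 thus stood above its neighbour Dlx1 in both astrocyte cultures. Six3 went the other way, with 47 reads in Ctx astrocytes (0.596 FPKM) and 234 in VM astrocytes (2.98 FPKM), 5.01-fold higher in VM astrocytes (3.65 to 7.01).

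**Figure D3:**
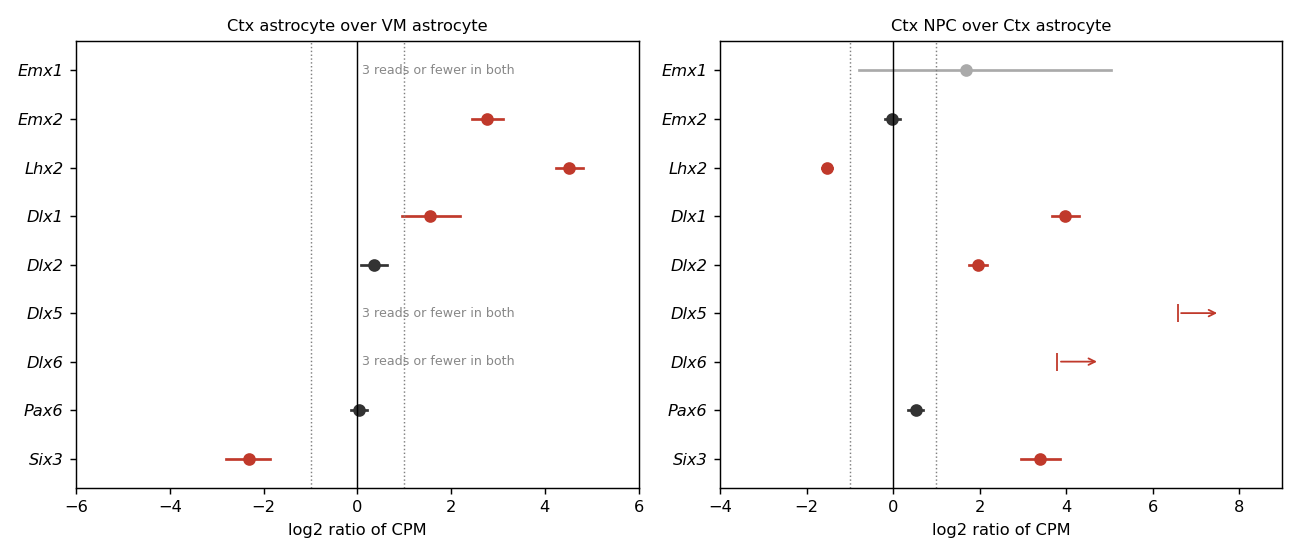
log2 ratio of CPM for each factor, Ctx over VM astrocytes (left) and Ctx NPC over Ctx astrocytes (right), with exact 95% counting intervals. Red marks a called difference, black a gene within 2-fold (dotted lines) and grey a gene with FPKM of 1 or less in both. Where 1 library had 0 reads, an arrow starts at the ratio set against 3 reads in that library, and no interval is drawn. Lhx2 lies farthest right on the left panel and is the gene called to the left of 0 on the right panel.

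Other regional factors were read alongside. Of 20 other dorsal telencephalon factors, 7 passed the filter, and 3 were higher and 2 lower in Ctx astrocytes. Among them Dmrta2, a regulator of the cortical hem and medial cortex, had 8.68 FPKM in Ctx astrocytes and 0.302 in VM astrocytes, and Otx1 had 13.4 and 4.91. Nr2f2 (COUP-TFII) was higher in VM astrocytes (1.98 against 21.0 FPKM), as was Hopx (11.1 against 24.5). Among 14 other ventral telencephalon factors in the tables, 5 passed, with 3 higher in Ctx astrocytes, Sox6 among them (10.5 against 4.44 FPKM), and Sp9 lower (0.911 against 2.47).

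The midbrain and hindbrain list ran in the opposite direction. Of its 25 genes, 18 passed the filter, 14 were higher in VM astrocytes and 1 (Pitx3) in Ctx astrocytes, with a median log2 ratio of -4.81. Pax3, of the dorsal neural tube, had 0 reads in Ctx astrocytes and 754 in VM astrocytes (10.5 FPKM). Otx2, of the midbrain and anterior neural plate, had 0 and 416 reads (8.74 FPKM). Hoxb2 of the hindbrain had 0 and 173 reads, and Irx2 had 15 and 1230. Pitx3, a dopamine neuron factor, had 41 and 6 reads. The summed FPKM of the list was 17.5 in Ctx astrocytes and 176 in VM astrocytes, against 74.1 and 16.7 for the 9 forebrain factors. Six3 lay with the midbrain list on the plot of both sets. Pax3 and Pax6 are relatives, so the Pax genes divided, with Pax6 at like levels in both cultures and Pax3 read in VM cultures alone.

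**Figure D4:**
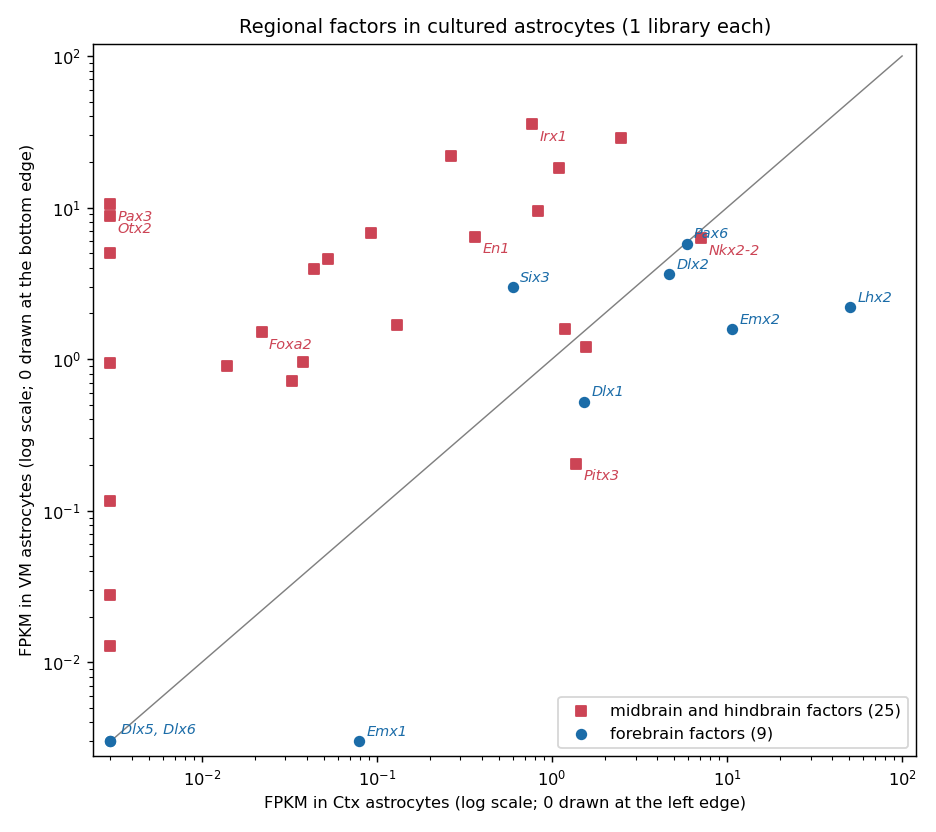
FPKM in Ctx astrocytes (x axis) and VM astrocytes (y axis), both log scales with 0 drawn at the edge, for the 9 forebrain factors (blue circles) and 25 midbrain and hindbrain factors (red squares); the line marks equal values. Lhx2, Emx2 and Dlx1 lie below the line, Pax6 close to it, and Six3 above it among the midbrain genes.

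Other cell types also differed between these libraries. All 7 microglia markers that passed the filter were higher in VM astrocytes, as were 9 of 12 meningeal and mesenchymal markers (summed FPKM of 170 in Ctx and 508 in VM astrocytes, none of 13 at 0 reads), 10 of 10 proliferation genes (38.3 against 163) and 3 of 5 oligodendrocyte markers, although their sum over all 8 was 132 in Ctx and 113 in VM astrocytes. Of 11 astrocyte markers, 6 were higher in Ctx astrocytes and none in VM astrocytes. Of 4 neuron markers that passed, Slc17a7 was higher in Ctx astrocytes (250 and 97 reads) and Stmn2 in VM astrocytes (4878 and 12377). The list summed to 166 and 332 FPKM, of which Stmn2 alone gave 119 and 304. The median log2 ratio of the 4 was 0.70, toward Ctx astrocytes. Ependymal markers summed to 194 and 134 FPKM, with Tmem212 at 0 reads in Ctx astrocytes. The part of these in the regional difference was not tested.

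What Ctx astrocytes shared with the library labelled Ctx NPC was asked by setting Ctx NPC against Ctx astrocytes. The Ctx NPC library also held high glial genes, so the ratios are not read as retention from embryonic to postnatal cells. All 4 Dlx genes and Six3 were called higher in Ctx NPC, Lhx2 was called higher in Ctx astrocytes, and Emx2 and Pax6 lay within 2-fold. These are 5 of 8 members passing the filter as higher, where 20.1% of 12623 genes were, and 1 of 8 as lower, where 17.9% were. Of the 5, Dlx5, Dlx6 and Six3 passed the filter only through Ctx NPC, the library where they were higher. With FPKM above 1 required in both libraries, 2 members were higher and 1 lower. The median log2 ratio was 2.67 for the 8 and 0.19 for all genes passing, and scaling by edgeR's TMM or DESeq2's size factors moved the median log2 ratio of all genes by -0.18. Age, labelled cell type and culture differ together between these libraries and cannot be told apart.

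Among the ventral genes Dlx1 had 1334 reads in Ctx NPC (24.0 FPKM, the highest of the 9 there) and 91 in Ctx astrocytes (1.53 FPKM), a 15.7-fold difference (12.7 to 19.6). Dlx2 had 905 (18.3 FPKM) and 248 reads (4.67 FPKM), a 3.91-fold difference (3.39 to 4.52). The early pair therefore differed to unequal extents, and their ratio turned. Dlx1 stood at 1.31 times Dlx2 per length in Ctx NPC (1.20 to 1.43) and at 0.326 times in Ctx astrocytes (0.254 to 0.417). In VM astrocytes the ratio was 0.144 (0.0950 to 0.211), in the library titled C 0.211 (0.119 to 0.356) and in that titled NF 0.0710 (0.0390 to 0.120). Dlx1 led its neighbour in the Ctx NPC library alone. The later pair was read in that library alone: Dlx5 had 267 reads (9.44 FPKM) and Dlx6 39 (1.81 FPKM), and both had 0 in the other 4 libraries. Set against 3 reads in Ctx astrocytes, the reads in Ctx NPC were 95.3-fold higher for Dlx5 and 13.9-fold higher for Dlx6. The exact 95% counting interval, which also takes in the error of the Ctx NPC reads, begins lower, at 77.0 for Dlx5 and 10.8 for Dlx6. Within Ctx NPC, Dlx5 stood at 5.21 times Dlx6 per length (3.71 to 7.49).

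Six3 had 463 reads in Ctx NPC (6.28 FPKM) and 47 in Ctx astrocytes, a 10.6-fold difference (7.81 to 14.6). Lhx2 was the member called in the other direction, from 812 reads (17.6 FPKM) to 2495 (50.6 FPKM), 2.87-fold higher in Ctx astrocytes (2.65 to 3.11). Emx2 had 550 reads (10.6 FPKM) and 596 reads (10.7 FPKM), a ratio of 0.989 (0.879 to 1.11). Pax6 had 715 reads (8.47 FPKM) and 533 (5.89 FPKM), a ratio of 1.44 (1.28 to 1.61). Emx1 had 6 reads and 2 reads, a ratio of 3.21 whose interval (0.575 to 32.6) spans 1. The cortical genes Emx2, Lhx2 and Pax6 were thus read in Ctx astrocytes at 0.696 to 2.87 times their CPM in the library labelled Ctx NPC. Emx1, the remaining cortical gene, stood at 0.311 times on its few reads (0.0307 to 1.74). The ventral genes and Six3 were at 0.256 times or less.

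The wider lists held genes of the same domains. Of 7 other ventral telencephalon factors that passed, 6 were higher in Ctx NPC, among them Olig2 (191 against 19.7 FPKM), Sp9 (6.11 against 0.911) and Gsx1 (5.30 against 0.947). Gsx2, which lies upstream of Dlx2, had 80 and 18 reads. Of 12 genes passing on the list of Dlx targets and GABA neuron genes, 7 were higher and none lower. Slc32a1, the vesicular GABA transporter, had 219 reads in Ctx NPC and 0 in Ctx astrocytes, and Sp8 had 1203 and 30. Gad1 (10.9 against 6.97 FPKM) lay within 2-fold. Of the dorsal genes, Tbr1 (312 and 0 reads), Neurod6 (192 and 0) and Eomes (147 and 3), which mark cortical neurons and their intermediate progenitors, were higher in Ctx NPC, as were Sp8, Hopx (3640 and 264) and Dmrta1 (209 and 17), while Dmrta2 (2.88 and 8.68 FPKM) was higher in Ctx astrocytes. Of 13 genes passing on that list, 7 were higher and 1 lower. On the list of Pax6 targets and radial glia genes, 4 of 11 were higher and 2 lower, with Hes5 at 1050 and 20 reads. Of the midbrain and hindbrain list, 9 passed, with 4 higher (Otx2 at 193 and 0 reads, En2 at 232 and 7, Nkx2-2 at 2268 and 313, Irx1 at 79 and 34) and 4 lower. Of the neuron markers, 8 of 10 were higher in Ctx NPC along with the Dlx genes (Dcx had 3831 and 2 reads). Stmn2 was lower there (1273 and 4878 reads). Higher in Ctx NPC as well were all 8 oligodendrocyte markers, 5 of 6 precursor markers of that lineage and 9 of 10 proliferation genes. Astrocyte markers were higher in 4 of 11 and lower in 1. All 6 microglia markers that passed were lower in Ctx NPC, as were 8 of 11 meningeal and mesenchymal markers (summed FPKM of 39.0 in Ctx NPC and 170 in Ctx astrocytes), of which 2 were higher. The part of these cells in the Dlx values was not tested.

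The forebrain factors in transduced VM astrocytes were read in 3 comparisons, which share libraries and are not independent. The library titled NF lay close to the untransduced one. None of the 5 members that passed the filter was called in either direction, where 0.322% of 12428 genes were higher and 0.668% lower. Lhx2 had 108 reads in untransduced VM astrocytes and 109 in that titled NF, a ratio of 1.06 (0.803 to 1.39). Pax6 had 519 and 502, with a ratio of 1.01 (0.894 to 1.15), Six3 had 234 and 242, with 1.08 (0.901 to 1.30), and Dlx2 had 192 and 188, with 1.03 (0.834 to 1.26). Emx2 had 87 and 73, with a ratio of 0.879 (0.635 to 1.21). Every one of these intervals spans 1. Dlx1, with 31 and 15 reads and FPKM under 1 in both, had a ratio of 0.507 (0.254 to 0.967). On the midbrain and hindbrain list, 2 of 18 genes passing were higher in the library titled NF, and they were Foxa2 and Nr4a2.

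The library titled C stood apart. Six3, Lhx2 and Dlx2 were called lower than in untransduced VM astrocytes and no member was called higher. So 3 of 5 members passing the filter were lower, where 8.48% of 12703 genes were, and 0 of 5 were higher, where 7.30% were. Six3 and Lhx2 passed the filter only through the untransduced library, where they were higher. With FPKM above 1 required in both libraries, 1 member was lower. Six3 had 36 reads in the library titled C (0.433 FPKM), and was 6.88-fold higher in untransduced VM astrocytes (4.83 to 10.1). Lhx2 had 21 reads (0.405 FPKM) and was 5.45-fold higher in the untransduced library (3.39 to 9.15), and Dlx2 had 76 (1.36 FPKM) and was 2.67-fold higher (2.04 to 3.54). Pax6 had 276 reads (2.90 FPKM) and lay just within the limit, at 1.99-fold (1.72 to 2.31). Emx2 was the member least apart, with 62 reads (1.06 FPKM) and a 1.49-fold difference (1.06 to 2.09). Dlx1 had 18 reads. All 6 measured members had the lower CPM in the library titled C.

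Set directly against each other, the library titled NF was higher than that titled C in Six3 (7.45-fold, 5.24 to 10.9), Lhx2 (5.76-fold, 3.58 to 9.67), Dlx2 (2.74-fold, 2.09 to 3.63) and Pax6 (2.02-fold, 1.74 to 2.34). These are 4 of 5 members passing, where 9.53% of 12701 genes were higher, and none was lower, where 9.73% of genes were. Six3 and Lhx2 passed the filter only through the library titled NF, where they were higher. Pax6 sits at the limit, and DESeq2's size factors or 5 added reads put it within 2-fold, leaving 3. Emx2 had a ratio of 1.31 (0.918 to 1.86). If the treatment entries of the labels hold in place of the titles, the direction of this comparison is that of mock virus over Nurr1 and Foxa2 viruses.

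**Figure D5:**
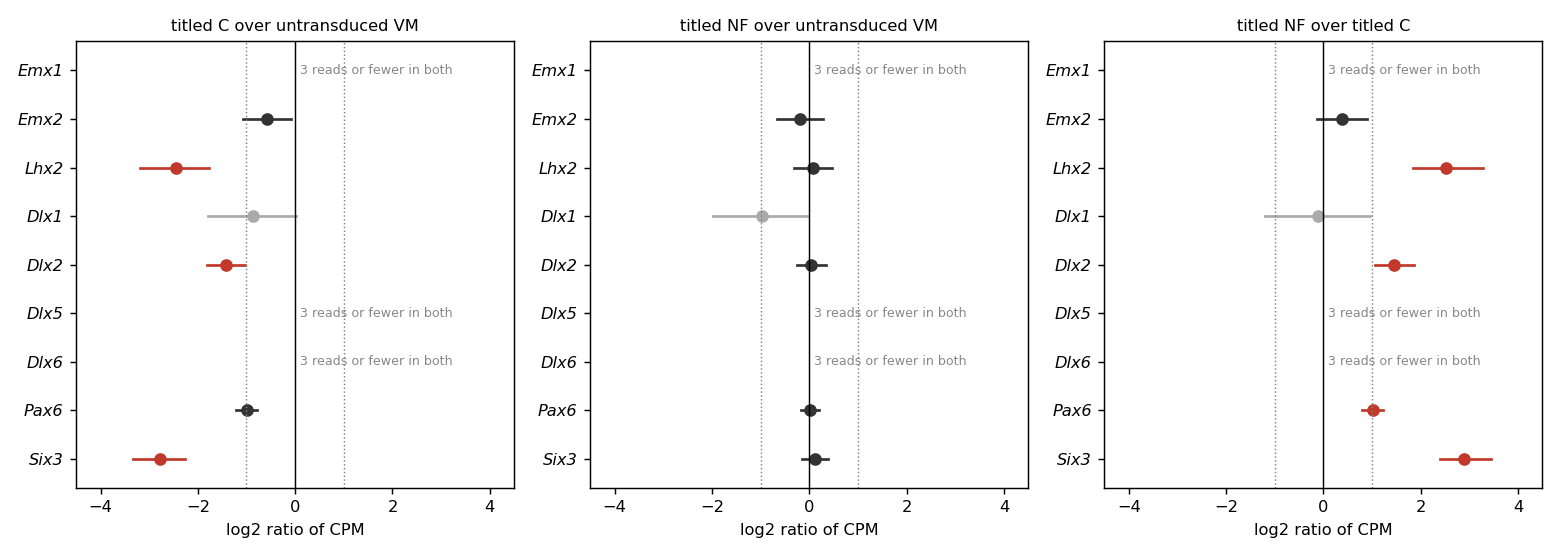
log2 ratio of CPM of each factor in the VM libraries, titled C over untransduced (left), titled NF over untransduced (middle) and titled NF over titled C (right), with exact 95% counting intervals and colours as in the plot of region and stage. In the middle panel the 5 members that passed the filter span 0, and in the left panel Six3, Lhx2 and Dlx2 lie left of -1.

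Other lists also differed in the library titled C. Of the midbrain and hindbrain factors, 6 of 17 passing were lower there than in untransduced VM astrocytes and none higher, with a median log2 ratio of -0.60 against -1.41 for the forebrain factors. The 4 farthest apart were Otx2 (416 and 41 reads), Foxa1 (267 and 47), Foxa2 (68 and 15) and Pax3 (754 and 340). Otx1 (296 and 36 reads) and Sp9 (148 and 45) were lower as well, while Olig2 was higher (885 and 2725). Of the members' relatives, 3 of 6 passing were lower. On the list of Dlx targets and GABA neuron genes, 4 of 8 were higher and 2 lower. Npy (159 and 793 reads) and Zeb2 (2700 and 7521) were among the higher ones, and microglia also express Zeb2.

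Markers of other cells moved with this library. Of 8 microglia markers passing the filter, 7 were higher in the library titled C than in untransduced VM astrocytes (Itgam had 7874 and 1893 reads, Csf1r 3199 and 527) and none lower. None of the 9 counted was at 0 reads in a VM library. Oligodendrocyte markers were higher in 6 of 7 and precursors of that lineage in 4 of 6. Neuron markers were higher in 4 of 7 and lower in 1. The latter was Slc17a7, with 97 reads in untransduced VM astrocytes and 32 in the library titled C. All 3 ependymal genes passing were lower (Foxj1 had 6527 and 1214 reads), as were 3 of 13 meningeal and mesenchymal markers. Of 11 astrocyte markers, 1 was higher and 1 lower, the latter Aldh1l1 (113 and 32.1 FPKM), and Gfap had 154 and 180 FPKM. The part of these cell types in the lower forebrain factors was not tested.

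The libraries were ordered by the FPKM of each factor, and Dlx2 and Pax6 gave the same order. Overlap here is between the counting intervals of single libraries and does not make the libraries equal. The interval of the ratio excluded equality for some overlapping pairs. Among them were Dlx2 in Ctx over VM astrocytes (1.06 to 1.56) and Emx2 in untransduced VM astrocytes over the library titled C (1.06 to 2.09). Dlx1 in the library titled NF over the untransduced one (0.254 to 0.967) was another. For Emx2, Ctx astrocytes (10.7) and Ctx NPC (10.6) shared the top with overlapping counting intervals, and the 3 VM libraries (1.57, 1.38 and 1.06) overlapped one another. For Lhx2, Ctx astrocytes stood clear of Ctx NPC, those 2 of the VM libraries titled NF (2.33) and untransduced (2.20), which overlapped, and these of the library titled C. For Dlx2, Ctx NPC was clear of the rest, Ctx astrocytes (4.67) overlapped the library titled NF (3.73) and the untransduced one (3.64), and the library titled C (1.36) was clear below. For Pax6, Ctx NPC (8.47) was clear above, the next 3 (5.89, 5.85 and 5.77) overlapped, and the library titled C (2.90) was clear below. For Six3, Ctx NPC (6.28) was clear above, the libraries titled NF (3.23) and untransduced (2.98) overlapped, and so did Ctx astrocytes (0.596) and the library titled C (0.433). Dlx1 ran from Ctx NPC (24.0) through Ctx astrocytes (1.53) to the 3 VM libraries (0.523, 0.287 and 0.265), which overlapped.

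The genes with profiles most like each factor were found by the root mean square difference of log2 CPM, centred per gene, over the 5 libraries, among 11553 genes that reached a CPM of 10 somewhere. They describe these 5 libraries only. Nearest to Lhx2 were Dmrta2 (0.337), Nr2e1 (0.510), an orphan receptor of forebrain neural stem cells, and Tnn (0.598). Nearest to Emx2 were Camk2b (0.181), Mro (0.321) and Meis2 (0.414). Dlx1 lay nearest B3gat2 (0.383), Sema5b (0.415) and Sncaip (0.465), and not Dlx2, from which it stood 1.39 apart. Dlx2 was followed most closely by Shisal1 (0.0910), Dab1 (0.105) and Mpped2 (0.162), and Pax6 by Naprt (0.0280), H1f0 (0.0660) and Abcb10 (0.0677). Dlx5 lay nearest Neurod2 (0.130), a cortical neuron factor with 213 reads in Ctx NPC and 0 elsewhere, then Dusp26 (0.819) and Ttc9b (0.843). Six3 lay nearest Cdkn1c (0.512), a transcript with no symbol in the reference table (0.521) and Enpp2 (0.542). Among the members themselves the closest pair was Dlx2 and Pax6 (0.755) and the farthest Lhx2 and Dlx5 (3.49).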

How the data were processed

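RNA-seq was read from 5 libraries, 1 per condition. According to the methods and the submitters' processing notes, the authors mapped reads with STAR and counted them on RefSeq exons with HTSeq. Their deposited counts are raw, and the FPKM that the authors gave beside them are the counts scaled by length and library size. A closing row of totals was left out. Symbols were paired by RefSeq accession for 19997 of 20178 transcripts. For log2 ratios of the scaled counts, 0.5 reads were added to each. Intervals are exact at 95% and cover counting error only. With 1 library per condition no count model could be fitted, and folds have no replicate check. Members, gene lists and the rule for named genes (all members, the 4 farthest apart per list and direction, overlapping genes, the 3 most like profiles, Foxa2 and Nr4a2) were chosen with earlier results of these data known. Some further list genes were named after their values were seen. Functions were tested on simulated counts. Nkx2-1, Cd68 and the antisense RNAs of the members were not analysed here, and some genes of the lists are counted in them but not reported singly here. Scaling factors came from edgeR 4.0.16 and DESeq2 1.42.0 under R 4.3.3, and the rest from Python 3.11.15 with scipy 1.17.1.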

Additional observations from a re-analysis of the deposited data

How the results depend on the processing

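No paired analysis was possible because each condition had 1 library. The 3 other scalings (edgeR's TMM, DESeq2's size factors and upper-quartile) moved no member's log2 ratio by more than 0.19 and reversed no called member. Of 100 recomputed counts of called members, 94 stayed within 1.5 times. Among the 94 are counts that were 0 and stayed 0, as in the library titled NF against the untransduced one. A fall from 3 to 2 members also lies within 1.5 times. Requiring FPKM above 1 in both libraries left 0 members lower in Ctx than in VM astrocytes, 2 higher in Ctx NPC than in Ctx astrocytes, 1 lower in the library titled C than in untransduced VM astrocytes, and 2 higher in that titled NF than in that titled C, since the gene must then be read in both. With no filter on low values, 1 member (Emx1, on 1 read) counted as higher in the library titled C than in the untransduced one and 1 as lower in that titled NF than in that titled C. Over all genes, 24 of 90 recomputed counts moved by over 1.5 times, as in genes higher in Ctx than in VM astrocytes, 564 in the comparison above, 1319 without a filter and 279 at 2.6-fold. Adding 5 reads lowered the log2 ratios of Dlx5 and Dlx6, at 0 reads in Ctx astrocytes, from 9.11 and 6.35 to 5.82 and 3.18. Counting error is widest at low counts, as for Emx1, Dlx1 in the VM libraries, Lhx2 (21 reads) and Six3 (36 reads) in the library titled C and Dlx6 (39 reads) in Ctx NPC, and the spread between cultures is not measured for any gene.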

Other observations

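The 22 paralogs of the 9 factors summed to 6.62 FPKM in Ctx NPC, 13.4 in Ctx astrocytes, 32.1 in VM astrocytes, 17.4 in the library titled C and 35.8 in that titled NF, below the 9 factors in the cortical libraries and above them in the VM libraries. Pax3 had 10.5 FPKM in VM astrocytes. Of the paralogs, 5 had at most 3 reads in every library, and 1 (Six5) had FPKM above 1 in all 5. Dlx3 had 3 to 10 reads and Dlx4 0 to 6, so Dlx1 and Dlx2 were the Dlx genes read above FPKM 1 in any astrocyte library. Among the Six-family genes, Six5 had 6.75 FPKM in Ctx astrocytes and 7.94 in VM astrocytes, and Six6, the closest relative of Six3, had 0 reads in both. Among the Lhx genes other than Lhx2, Lhx6 was the only one on the list above FPKM 1 in any library, at 1.31 in the library titled C. Pax8 had 0 reads in Ctx NPC and Ctx astrocytes and 52, 7 and 50 reads in VM astrocytes and the libraries titled C and NF.

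Fezf2, a forebrain and cortical projection neuron factor, had 23 to 31 reads in each of the 5 libraries. Nr2f1 was above 37 FPKM throughout (37.8 in Ctx NPC, 42.7 in Ctx astrocytes, and 55.4, 44.1 and 49.4 in VM astrocytes and the libraries titled C and NF), whereas its relative Nr2f2 ran from 1.98 FPKM in Ctx astrocytes to 22.7 in the library titled NF.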
